A study of Mus musculus with 61 samples.

Results

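The 6 genes described here encode the mouse receptors for the constant part of immunoglobulin G and the signalling chain they share: Fcgr1, Fcgr3, Fcgr4, Fcer1g, Fcgr2b and Fcgrt. They were chosen by symbol, as 6 of the 21169 genes in a table of RNA-seq counts from adipose tissue, and all 6 passed the filter on low counts that left 18603 genes for testing. The 61 libraries came from 8 inbred strains, those that founded the Diversity Outbred stock, with 7 libraries each of 129, AJ and Cast and 8 each of B6, NOD, NZO, PWK and WSB. Every mouse had received a high-fat, high-sugar diet, labelled 45 percent fat, so no strain serves as a control and no lean or chow-fed group is compared. The labels give no sex, age, fat depot or sequencing batch. They number the libraries within each strain without saying that each came from its own mouse, so the p-values measure the spread between these libraries.

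Fc gamma receptors let immune cells sense antibody bound to a target. Fcgr1, Fcgr3 and Fcgr4 are activating receptors that depend on the Fcer1g chain, whose tyrosine motif recruits the kinase Syk, whereas Fcgr2b carries an inhibitory motif and restrains the same cells through the phosphatase encoded by Inpp5d. Fcgrt is a different kind of receptor, related to class I histocompatibility molecules, which pairs with B2m and returns IgG and albumin from endosomes to the blood. In fat, macrophages are a known source of the activating receptors, and Fcgr2b is also known from B cells and some endothelial cells.

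The members lie on 3 chromosomes. Fcgr2b (ENSMUSG00000026656, chr1:170958617-170976547, minus strand), Fcgr4 (ENSMUSG00000059089, chr1:171018920-171029761, plus strand), Fcgr3 (ENSMUSG00000059498, chr1:171051174-171064935, minus strand) and Fcer1g (ENSMUSG00000058715, chr1:171229572-171234365, minus strand) are neighbours on chromosome 1, on build GRCm38 as in the deposited annotation. Fcgr1 is on chromosome 3 (ENSMUSG00000015947, chr3:96282909-96293969, minus strand) and Fcgrt on chromosome 7 (ENSMUSG00000003420, chr7:45092993-45103822, minus strand).

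The sequences before the starts of the 3 activating receptors and of the inhibitory one are shown because these receptors moved in opposite directions in NZO. They are the 250 bases before the start in RefSeq (GRCm38.p6), written 5′ to 3′ on the gene's own strand, and they are the reference sequence, not the alleles of the 8 strains. Capitals mark 2 motifs searched on both strands: GAGGAA, a core of the ETS type that PU.1 can recognise, and TTCNNNGAA, the gamma-interferon activation site. The windows are chr3:96293970-96294219, chr1:171059404-171059653, chr1:171018676-171018925 and chr1:170976072-170976321, in the order listed, and those of Fcgr3 and Fcgr2b lie inside the gene spans of the deposited annotation.
Fcgr1: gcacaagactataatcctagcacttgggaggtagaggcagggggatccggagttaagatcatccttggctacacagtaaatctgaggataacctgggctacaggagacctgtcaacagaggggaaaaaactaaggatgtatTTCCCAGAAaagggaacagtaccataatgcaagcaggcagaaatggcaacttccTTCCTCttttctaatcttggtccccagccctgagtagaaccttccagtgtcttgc
Fcgr3: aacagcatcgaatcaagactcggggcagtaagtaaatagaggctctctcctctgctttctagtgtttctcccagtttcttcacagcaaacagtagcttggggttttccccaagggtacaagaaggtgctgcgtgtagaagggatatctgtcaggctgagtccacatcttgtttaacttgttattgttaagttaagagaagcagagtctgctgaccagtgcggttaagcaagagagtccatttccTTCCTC
Fcgr4: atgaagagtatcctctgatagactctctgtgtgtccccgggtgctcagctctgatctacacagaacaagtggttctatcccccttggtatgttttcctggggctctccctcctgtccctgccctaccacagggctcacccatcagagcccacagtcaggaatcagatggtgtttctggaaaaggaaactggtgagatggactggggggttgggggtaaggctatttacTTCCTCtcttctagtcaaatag
Fcgr2b: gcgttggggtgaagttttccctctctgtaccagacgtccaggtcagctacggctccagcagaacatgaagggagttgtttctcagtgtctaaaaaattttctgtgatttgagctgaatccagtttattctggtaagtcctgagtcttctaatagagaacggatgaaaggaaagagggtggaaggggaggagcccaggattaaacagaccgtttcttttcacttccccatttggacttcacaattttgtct

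GAGGAA was found once, on the opposite strand as TTCCTC, in each of the windows of Fcgr1, Fcgr3 and Fcgr4. It was not found in those of Fcgr2b, Fcer1g and Fcgrt. Of 32851 RefSeq windows of this length, 23.3% held it. TTCNNNGAA was found in the Fcgr1 window, as TTCCCAGAA, and in none of the other 5, against 7.02% of all windows. The motifs were chosen with these sequences in view, and a match is a description of letters.

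A few libraries stood apart. Neutrophil markers summed to 3894 CPM (counts scaled to library size) in NZO replicate 8, against at most 55.4 in the other NZO libraries, and genes of antibody-secreting cells summed to 4459 there. Cast replicates 5 and 6 were higher than the other 5 Cast libraries for Fcgr1, Fcgr3, Fcgr4, Fcer1g and Fcgr2b, and lower for Fcgrt. In 13 libraries the markers of liver, muscle or genital duct exceeded 500, 300 or 300 CPM. Library totals ran from 19851580 to 61277576 counts. Many of the results that change without these libraries are given with both values.

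Per kilobase of exon, the scale on which genes can be compared, Fcgrt was the most abundant member, with a mean over strains of 107.9 CPM per kilobase. Fcgr3 followed at 28.5 and Fcer1g at 22.1, and then Fcgr2b at 5.23, Fcgr1 at 3.02 and Fcgr4 at 1.77. The order puts the low-affinity activating receptor and its signalling chain above the inhibitory receptor. All 6 members differed among strains by the edgeR quasi-likelihood F-test, as did 89.9% of the genes tested, so the F-test says little about the members. Strain accounted for 72.7% to 75.1% of the variance in log2 CPM for Fcgr1, Fcgr3, Fcgr4 and Fcer1g, for 60.7% in Fcgr2b and for 36.2% in Fcgrt, against a median of 48.7% over all genes.

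In NZO, the activating receptors and their shared chain were higher than in the other strains, and the inhibitory receptor was lower than their mean. Each strain was set against the mean of the other 7 in edgeR, with p-values adjusted over all genes tested. In NZO 4 of 6 members were higher, against 27.2% of all genes tested, and 1 of 6 was lower, against 26.6%. The 5 were Fcgr1, Fcgr3, Fcgr4 and Fcer1g upward and Fcgr2b downward.

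**Figure D1:**
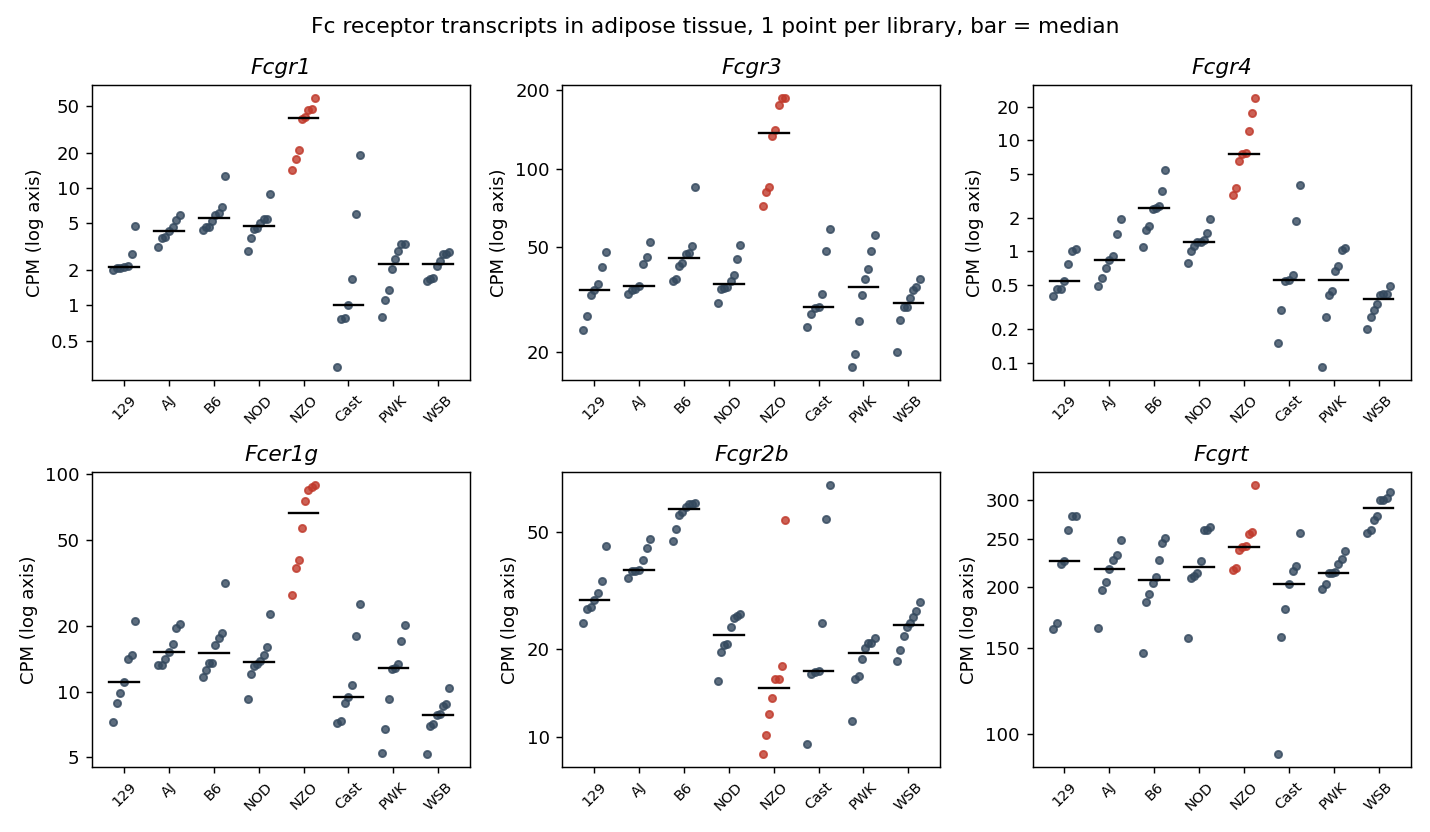
CPM of each member on a log axis, with 1 point per library, the 8 strains along the horizontal axis, a bar at each strain's median and NZO in red. NZO stands above the other strains in Fcgr1, Fcgr3, Fcgr4 and Fcer1g, while in Fcgr2b it is low in 7 of 8 libraries and B6 is high.

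Fcgr1, the high-affinity IgG receptor, had a lowest, median and highest value of 14.2, 39.7 and 58.4 CPM in NZO. In the other 53 libraries it ran from 0.299 to 19.3 CPM, and 6 of 8 NZO libraries exceeded all of them. The groups overlapped through 1 library, Cast replicate 5. The log2 fold change was 3.31 ± 0.25 (SE), a 9.89-fold difference (edgeR, adjusted p = 1.11e-16). NZO also exceeded the next strain in order, B6 (mean 6.34 ± 2.72 CPM, SD, n = 8), by 2.49 ± 0.44 on the log2 scale (edgeR adjusted p = 9.37e-06). No other neighbours in the order of means, B6, NOD, AJ, Cast, 129, WSB and PWK, differed by that test.

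Fcgr4, the activating receptor that binds IgG2 subclasses, showed the same order at its top. In NZO its lowest, median and highest values were 3.21, 7.58 and 23.7 CPM. Elsewhere it ran from 0.0921 to 5.42 CPM, and 3 libraries outside NZO exceeded the lowest NZO value. The fold change was 3.48 ± 0.25 (log2, SE), or 11.2-fold (edgeR adjusted p = 1.25e-17). Outside NZO its strain means lay between 0.353 and 2.59 CPM, so that its values there rest on few reads.

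Fcgr3, the low-affinity activating receptor, spanned 72.2 to 185.3 CPM in NZO, with a median of 137 CPM. In the other 53 libraries it spanned 17.5 to 84.8 CPM, and the single library inside the NZO range was B6 replicate 6. NZO replicates 1, 2, 3, 4 and 8 lay between 132.8 and 185.3 CPM, and replicates 5, 6 and 7 between 72.2 and 84.8 CPM. The log2 fold change was 1.82 ± 0.13, or 3.54-fold (edgeR adjusted p = 1.61e-17). Fcer1g, the chain with the activating motif, spanned 27.9 to 89.4 CPM in NZO and 5.18 to 31.7 CPM elsewhere, and 7 of 8 NZO libraries exceeded every other library. Its log2 fold change was 2.28 ± 0.16, or 4.86-fold (edgeR adjusted p = 4.12e-18).

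Fcgr2b, the inhibitory receptor, went the other way. Its NZO values were 8.80 CPM at the lowest, 14.7 at the median and 55.0 at the highest. The highest was replicate 8, the library rich in neutrophil and antibody-secreting cell transcripts, and the other 7 lay between 8.80 and 17.5 CPM. Against a range of 9.46 to 72.5 CPM elsewhere, the log2 fold change was −0.68 ± 0.21, or 1.61-fold lower (edgeR adjusted p = 0.00514). Without NZO replicate 8 it was −1.15 (edgeR adjusted p = 1.35e-06). Strain by strain, Fcgr2b was lower in NZO than in B6, AJ, 129 and Cast, while the differences from WSB, NOD and PWK did not pass (edgeR adjusted p = 0.253, 0.457 and 0.938). Fcgrt, which protects IgG from breakdown, was not called in NZO, with a mean of 249.1 ± 33.4 CPM (SD, n = 8) and a log2 difference of 0.17 ± 0.09 (edgeR adjusted p = 0.125).

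**Figure D2:**
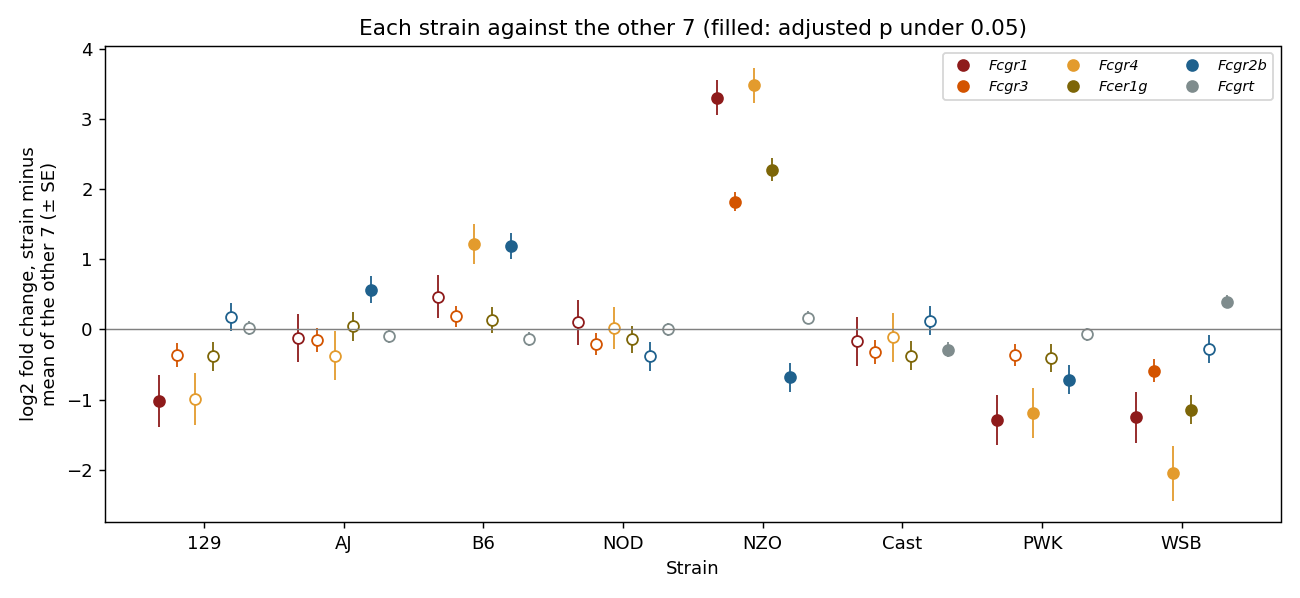
Log2 fold change of each member in each strain against the mean of the other 7, with its standard error, filled where the adjusted p is under 0.05. In NZO the activating side reaches 1.82 to 3.48 while Fcgr2b is at −0.68, and in WSB the activating side lies between −2.05 and −0.59.

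Fcgr2b and Fcgr3 share sequence, which bears on how their reads are divided. Their longest transcripts in GENCODE M21 matched at 96.5% over 509 bases, whereas the best match to Fcgr4 was 64.4% for Fcgr3 and 64.7% for Fcgr2b. The estimated counts were not whole, within 1e-06, in 37 of 61 libraries for Fcgr2b and in 25 for Fcgr3, and in none for the other 4. The share differed by strain. For Fcgr2b it was 8 of 8 in B6, 7 of 7 in AJ and 7 of 8 in NZO. It was 4 of 7 in Cast, 3 of 7 in 129, 3 of 8 in PWK and WSB, and 2 of 8 in NOD. For Fcgr3 it was 8 of 8 in B6, 5 of 8 in NZO, and 4 of 7 in AJ and in Cast. In WSB it was 2 of 8, in 129 1 of 7, in PWK 1 of 8 and in NOD 0 of 8. Summed into 1 feature, an alternative added after the data were seen, the pair was 1.15 ± 0.13 higher in NZO (log2, edgeR adjusted p = 7.56e-11). In B6 the sum was 0.59 higher, in PWK 0.56 lower and in WSB 0.53 lower. How far strain variants change the division of reads between the genes was not tested.

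The balance of activating to inhibitory receptor was taken within each library, as the log2 ratio of (CPM + 0.5). Such a ratio does not correct for reads divided wrongly between Fcgr2b and Fcgr3. These would change both terms of the Fcgr3 to Fcgr2b ratio, and the Fcgr2b term of the ratios of Fcgr1 and Fcgr4 to Fcgr2b. A difference between strains in such a ratio does not depend on gene length. Ratios of 6 kinds in 8 strains gave 48 comparisons, each tested by permuting strain labels over libraries 100000 times, 2-sided, with Benjamini-Hochberg adjustment over the 48. Of these 11 passed at an adjusted p under 0.05.

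In NZO the ratio of Fcgr1 to Fcgr2b averaged 1.01 ± 1.06 (SD, n = 8), from −0.22 to 2.46, against −4.05 to −1.48 in the other libraries. No library outside NZO reached the lowest NZO ratio. The difference was 4.01, or 16.1-fold (permutation p = 1e-05, the smallest that these permutations can give, adjusted p = 0.00012). The ratio of Fcgr4 to Fcgr2b was 3.54 higher, or 11.6-fold, with the same p, and its ranges, −2.14 to 0.76 and −5.56 to −3.40, also did not overlap. The ratio of Fcgr3 to Fcgr2b was 2.61 higher, or 6.10-fold, again with that p. Its lowest NZO value, 1.35 in replicate 8, lay below the highest value elsewhere, 1.51.

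**Figure D3:**
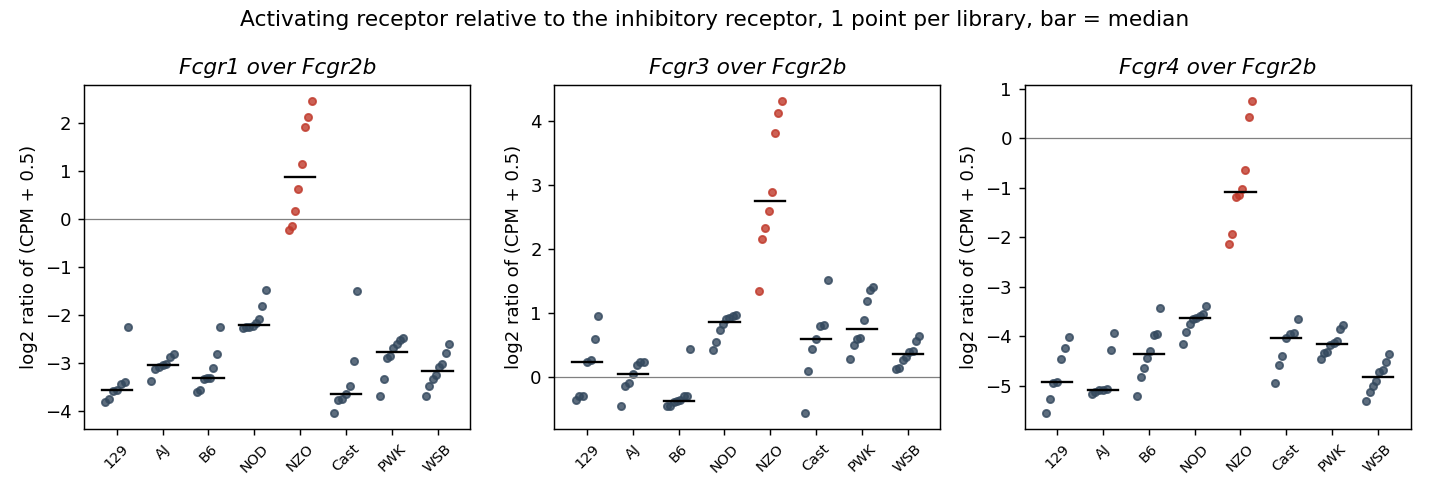
Log2 ratio of each activating receptor to Fcgr2b, from CPM with 0.5 added, with 1 point per library and a bar at each strain's median. NZO, in red, lies above all other libraries for Fcgr1 and Fcgr4, and its lowest Fcgr3 ratio, 1.35, lies under the highest value elsewhere, 1.51.

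Relative to their own signalling chain the receptors moved less. In NZO the ratio to Fcer1g was 0.98 higher for Fcgr1 (permutation adjusted p = 0.000192) and 0.42 lower for Fcgr3 (permutation adjusted p = 0.00048). For Fcgr4 it was 0.51 higher (permutation adjusted p = 0.0476), but with a pseudocount of 2 CPM the difference was −0.21, so its direction rests on how low values are treated, and without NZO replicate 8 it was 0.38 and did not pass (permutation adjusted p = 0.168), nor did it without the 13 libraries rich in other tissues' markers (permutation adjusted p = 0.0571). In WSB the ratio of Fcgr3 to Fcer1g was 0.49 higher (permutation adjusted p = 0.00012), and in B6 that of Fcgr4 to Fcer1g was 0.70 higher (permutation adjusted p = 0.00233). With a pseudocount of 2 CPM the B6 difference was 0.30 and did not pass (permutation adjusted p = 0.138). The ratio of Fcgr1 to Fcer1g differed by −0.64 in Cast (permutation adjusted p = 0.0476, and 0.247 with a pseudocount of 2 CPM) and by −0.62 in PWK (permutation adjusted p = 0.04), where it did not pass without the 13 libraries rich in other tissues' markers (permutation adjusted p = 0.0785). The last of the 11 was the ratio of Fcgr3 to Fcgr2b in B6, 1.08 lower (permutation adjusted p = 0.0476, and 0.0624 with a pseudocount of 2 CPM). The mean of other strains set against B6 there, 0.80, includes NZO at 2.945.

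Macrophage transcripts moved with the activating side. Of 23 macrophage markers 19 were higher in NZO and 1, Cd163, was lower, and their sum per library was 3548 to 9956 CPM there, with a median of 7928, against strain medians of 1250 to 2162 CPM elsewhere. B6 replicate 6, the highest library outside NZO at 4401 CPM, lay above the lowest NZO libraries. In bulk tissue, more cells of a type and more RNA per cell cannot be told apart. Across the 61 libraries, with strain means taken off, Pearson's r with the mean log2 CPM of these markers was 0.94 for Fcer1g, 0.93 for Fcgr3, 0.73 for Fcgr4, 0.70 for Fcgr1, 0.43 for Fcgr2b and −0.34 for Fcgrt. These points share libraries and depth, and the r values are descriptions.

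With that marker mean as a covariate in edgeR, the 4 activating-side differences in NZO were 0.67 for Fcgr1, 0.16 for Fcgr3, 0.66 for Fcgr4 and 0.22 for Fcer1g on the log2 scale. None of the 4 passed (edgeR adjusted p = 0.207, 0.261, 0.243 and 0.177). Fcgr2b was then −1.81 ± 0.32 (edgeR adjusted p = 2.99e-05) and Fcgrt 0.50 ± 0.17 (edgeR adjusted p = 0.0268). In that fit 2 of 6 members were called in NZO, against 26.6% of all genes in either direction. The slope on the marker mean within strains was 1.68 for Fcgr1, 1.04 for Fcgr3, 1.71 for Fcgr4 and 0.71 for Fcgr2b. The ratios to Fcgr2b can thus move with the marker level, and they were not tested with this covariate. The marker mean itself was 6.13 to 7.36 in NZO and at most 6.30 elsewhere, so the ranges met only at their edges, and NZO and a high marker level cannot be told apart.

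**Figure D4:**
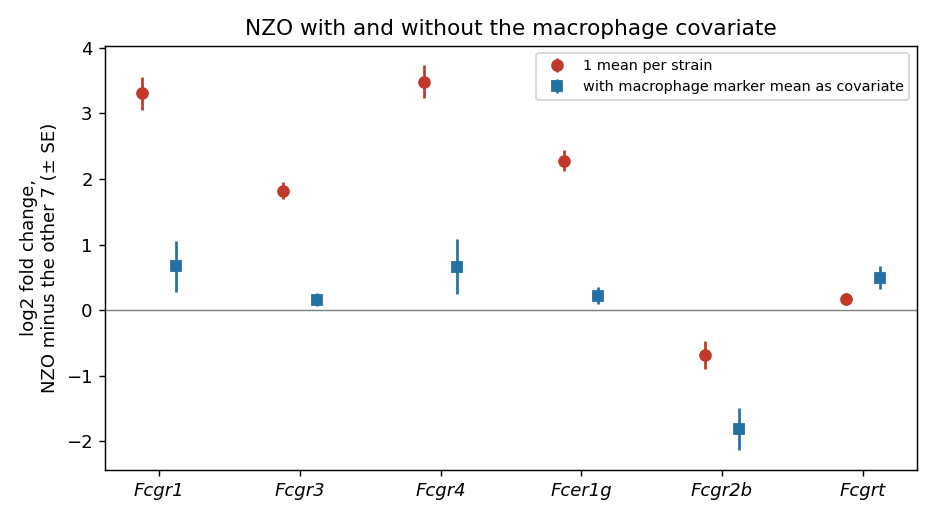
Log2 fold change of each member in NZO against the other 7 strains, with its standard error, as circles without and squares with the macrophage marker mean as a covariate. The values of Fcgr1, Fcgr3, Fcgr4 and Fcer1g move to between 0.16 and 0.67, and Fcgr2b moves from −0.68 to −1.81.

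Markers of other cell types also moved in NZO, where 27.2% of all genes tested were higher and 26.6% lower with all libraries. Markers of neutrophils were higher in 11 of 11 tested, of natural killer cells in 10 of 10, of B cells in 10 of 12 and of mast cells in 8 of 9, and their part in the receptor levels was not tested. Without NZO replicate 8 the neutrophil count was 4 of 11 higher and 2 lower, that of B cells 9 of 12, and those of natural killer and mast cells were again 10 of 10 and 8 of 9. The median NZO sum of neutrophil markers, 45.8 CPM, lay near those of WSB, 43.0, and B6, 36.3, and that of B cell markers, 34.5, near B6, 35.1. Adipocyte markers were lower in 9 of 12 and higher in 1, Lep. Endothelial markers were higher in 4 of 12, Cdh5, Tie1, Esam and Egfl7, near the share over all genes. They were lower in 1, Robo4, and without replicate 8 they were higher in 1 and lower in 2 of 12. Without NZO replicate 8, Fcgr1, Fcgr3, Fcgr4 and Fcer1g were 3.25, 1.82, 3.19 and 2.21 higher on the log2 scale.

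WSB showed the reverse on the activating side. Fcgr1, Fcgr3, Fcgr4 and Fcer1g were all lower there, 4 of 6 members against 23.7% of all genes, and Fcgrt was higher, 1 of 6 against 25.6%. Fcgr4 ran from 0.201 to 0.490 CPM in WSB, and 10 of 53 other libraries fell below that highest value. Its log2 fold change was −2.05 ± 0.39, or 4.14-fold lower (edgeR adjusted p = 1.8e-05). Fcer1g ran from 5.18 to 10.4 CPM and was 2.21-fold lower (log2 −1.14 ± 0.21, edgeR adjusted p = 1.08e-05). WSB also lay under the strain next to it in the order of Fcer1g means, PWK (edgeR adjusted p = 0.0384). The log2 fold change of Fcgr1 was −1.26 ± 0.36 and that of Fcgr3 −0.59 ± 0.16. Strain by strain, Fcgr3 was lower in WSB than in NZO and B6 only, and Fcgr1 than in NZO, B6 and NOD only. Fcgr4 was lower than in every strain but 129 and PWK, and Fcer1g than in every other strain.

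Fcgrt, by contrast, was highest in WSB. Its 8 values there ran from 257.8 to 312.4 CPM with a mean of 286.1 ± 21.1 (SD), and 8 of the 53 other libraries exceeded the lowest. The log2 fold change was 0.39 ± 0.09, or 1.31-fold (edgeR adjusted p = 0.000297). No 2 neighbours in its order of means differed, from WSB through NZO, 129, NOD, PWK, AJ and B6 to Cast. B2m, the light chain that Fcgrt needs, was lower in WSB (log2 −0.39 ± 0.09, edgeR adjusted p = 0.000437). In WSB 18 of 23 macrophage markers were lower, and with their mean as a covariate Fcgr3 was 0.30 higher, Fcgr1 0.25 higher without passing, and Fcgrt no longer passed (edgeR adjusted p = 0.00113, 0.551 and 0.137). Fcgr4 and Fcer1g did not pass as lower in that fit either (edgeR adjusted p = 0.234 and 0.753). Among the markers in that covariate, Folr2 averaged 1.67 CPM in WSB, against 32.9 CPM in the other strains (log2 −3.78). Its part in the covariate fit was not tested.

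B6 carried the most Fcgr2b. Its 8 libraries ran from 46.8 to 62.8 CPM with a median of 59.9, and 4 of the 53 other libraries lay above its lowest value. The log2 fold change was 1.19 ± 0.18, or 2.28-fold (edgeR adjusted p = 4.8e-07), and it was 1.09 with the macrophage covariate (edgeR adjusted p = 2.61e-07). Fcgr4 was also higher in B6, 2.59 ± 1.36 CPM (SD, n = 8), by 1.22 ± 0.29 on the log2 scale (edgeR adjusted p = 0.000978). B6 thus had 2 of 6 members higher, against 14.6% of all genes, and 0 lower, against 11.7%. By pairs, Fcgr2b was higher in B6 than in every strain but AJ (edgeR adjusted p = 0.214). Fcgr4 was higher in B6 than in every strain but NOD (edgeR adjusted p = 0.118) and NZO. It was lower in B6 than in NZO (edgeR adjusted p = 0.000217). Without Cast replicates 5 and 6, Fcgr1 also passed in B6 (log2 0.78, edgeR adjusted p = 0.00172). B cell markers were higher in 11 of 12 in B6, and their part in the Fcgr2b level was not tested.

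PWK had 3 of 6 members lower, Fcgr1, Fcgr4 and Fcgr2b, against 19% of all genes, and 0 higher, against 24.6%. Fcgr1 there ran from 0.800 to 3.37 CPM and was 2.45-fold lower, Fcgr4 was 2.29-fold lower and Fcgr2b 1.64-fold lower (edgeR adjusted p = 0.00272, 0.00519 and 0.00453). Strain by strain, Fcgr1 and Fcgr4 were lower in PWK than in NZO, B6 and NOD only, and Fcgr2b than in B6, AJ, 129 and Cast only. Without the 13 libraries rich in liver, muscle or genital duct markers, 3 of them PWK, none of these 3 passed (edgeR adjusted p = 0.0725, 0.164 and 0.0824), nor did they with the macrophage covariate (edgeR adjusted p = 0.167, 0.0852 and 0.117). AJ had 1 of 6 members higher, Fcgr2b by 0.57 ± 0.20 (log2, edgeR adjusted p = 0.0304), against 13.4%, and 0 lower, against 9.59%. Without those 13 libraries, 3 of them AJ, it did not pass (edgeR adjusted p = 0.23). With the macrophage covariate it did not pass either (edgeR adjusted p = 0.0919), and Fcgr3 and Fcer1g passed as lower in AJ (log2 −0.40 and −0.24, edgeR adjusted p = 1.99e-06 and 0.012). In 129, 1 of 6 was lower, Fcgr1 by 2.04-fold (edgeR adjusted p = 0.0454), against 7.78%, and 0 higher, against 10.8%. Without those libraries Fcgr1 did not pass in 129 (edgeR adjusted p = 0.119), and Fcgr3 passed as lower (log2 −0.59, edgeR adjusted p = 0.0369). With the macrophage covariate Fcgr1 did not pass in 129 (edgeR adjusted p = 0.363). Strain by strain, Fcgr1 in 129 was lower than in NZO only. NOD had 0 of 6 in either direction, against 14.7% higher and 11.8% lower. Its Fcgr2b, 22.3 ± 3.77 CPM (SD, n = 8), was 0.38 lower without passing (edgeR adjusted p = 0.164). With the macrophage covariate 3 members passed as lower in NOD, Fcgr3 at −0.42, Fcer1g at −0.40 and Fcgr2b at −0.54 on the log2 scale (edgeR adjusted p = 1.73e-07, 2.16e-05 and 0.0242).

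Cast depended on 2 libraries. As fitted, 1 of 6 members was lower, Fcgrt by 0.29 ± 0.10 (log2, edgeR adjusted p = 0.0144), against 26.6% of all genes, and 0 were higher, against 29.6%. Its Fcgr1 values were 0.299, 0.783, 1.68, 0.769 and 1.01 CPM in replicates 1, 2, 3, 7 and 8, and 19.3 and 6.01 CPM in replicates 5 and 6. Fcgr2b was 9.46 to 24.5 CPM in those 5 and 55.4 and 72.5 CPM in the other 2. Replicate 5 had the highest macrophage marker sum in Cast, 3531 CPM against a Cast median of 1590. Without these 2 libraries, Fcgr1 was 2.42 lower and Fcgr2b 0.73 lower on the log2 scale (edgeR adjusted p = 1.8e-08 and 0.00297), Fcgr3, Fcgr4 and Fcer1g also passed as lower, and Fcgrt did not (edgeR adjusted p = 0.416). With the macrophage covariate and all libraries, Fcgr3, Fcgr4 and Fcer1g passed as higher in Cast (log2 0.32, 0.58 and 0.37, edgeR adjusted p = 9.87e-05, 0.0463 and 0.000144). Among the markers in that covariate, Ms4a7 averaged 0.060 CPM in Cast, against 12.8 CPM in the other strains (log2 −6.76). How far this marker alone lowered the covariate in Cast, and so moved these differences, was not tested.

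Over all 28 strain pairs, 69 of 168 member comparisons passed, against 37.1% of all comparisons of genes. In pairs with NZO 33 of 42 passed, against 46.2% over all genes, and in pairs without it 36 of 126, against 34.1%. Fcgr3 passed in all 7 pairs with NZO and in 1 of 21 without it, Fcgr1 in 7 and 4, Fcgr4 in 7 and 9, and Fcer1g in 7 and 6. Fcgr2b was spread more widely, with 4 of 7 and 10 of 21, and Fcgrt with 1 and 6.

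The other genes of the pathway were taken by lists of known roles. Among the ligands, the 8 listed genes had a median log2 change of 0.02 in NZO beside −0.02 over all genes, and 1 was higher, the pentraxin Ptx3 (2.06 ± 0.33), and 1 lower, Alb (−2.61 ± 0.93). Without replicate 8 the median was −1.16, with 1 higher and 2 lower. Alb is also among the liver markers, of which 5 of 10 were lower in NZO and 0 higher, and 3 lower without replicate 8. Their sum reached 1613 CPM in an AJ library and 1183 in a PWK library, against at most 53.6 in NZO. The part of liver RNA in the Alb difference was not tested. None of the 4 IgG heavy chains passed in NZO with all libraries. Ighg2b reached 27.8 CPM in replicate 8 while the NZO mean was 3.79 ± 9.70 (SD, n = 8). In WSB 3 ligands were lower, Ighg1, Ighg2b and Ighg2c, and in B6 1 was called, Ighg2c, 3.14 ± 0.49 higher (edgeR adjusted p = 1.13e-06). Ighg2c is an allotype that some mouse strains carry in place of Ighg2a, and the strains' haplotypes were not analysed here.

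Receptors that signal through Fcer1g, its relative Tyrobp or a like motif rose in NZO in 11 of 13 tested and fell in 0, with a median of 3, and without replicate 8 in 9 and 1 with a median of 2.33. The largest was Cd300ld, a myeloid receptor (3.86 ± 0.20, 55.6 ± 29.8 CPM, SD, n = 8). Proteins that carry the activating signal were higher in 24 of 26, with a median of 1.65, led by the adaptor Lat2 (3.25 ± 0.27), and Pik3r1 and Plcg1 did not pass. Proteins of the inhibitory arm were higher in 13 of 15, with a median of 1.71, led by the collagen receptor Lair1 (3.40 ± 0.23), and Ptpn11 and Cblb did not pass. Fcgr2b, at −0.68, thus differed in sign from all 13 called genes of that inhibitory list in NZO. The list is not particular to Fcgr2b and also holds other receptors, such as Lair1. Among the 13 was Inpp5d, the phosphatase of Fcgr2b (1.37 ± 0.13, edgeR adjusted p = 1.48e-13), named here for its role after its value was seen. Of 13 effectors of phagocytosis and the oxidase 10 were higher, led by the oxidase subunit Ncf4 (2.72 ± 0.19), and 2 lower, Amph (−3.70 ± 0.41) and Gsn (−0.93 ± 0.17). All of these medians with all libraries stand beside −0.02 over all genes tested, and the counts beside 27.2% of all genes higher and 26.6% lower. Without replicate 8 the median was 1.46 for the activating signal proteins and 1.36 for the inhibitory arm, with the same counts higher.

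Partners of Fcgrt and the endosomal route it uses had a median of 0.21 in NZO. Of these 6 genes 3 were higher, B2m, Snx4 and Rab11fip5, against 27.2% of all genes. Rab4a and Rab25, 2 of 6, were lower, against 26.6%. Without replicate 8, 4 of these 6 were higher and 1 lower. Among other Fc receptors and related genes, 7 of 12 were higher in NZO and 2 were lower, Fcamr and Pigr, the carrier of IgA and IgM (Pigr −3.31 ± 0.84, at 0.428 CPM in NZO). The intracellular IgG receptor Trim21 was 0.39 ± 0.08 higher. In WSB the activating signal proteins went down, 23 of 26 lower and 1 higher, Pik3r1, with a median of −0.70, and the inhibitory ones in 10 of 15, with 1 higher, Inppl1. In B6 these 2 lists gave few calls: Pik3cd and Pik3cg higher among activating ones, and Dok2 and Lair1 higher with Inppl1 and Cblb lower among inhibitory ones.

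The other genes around the chromosome 1 members were called in both directions in NZO, and those given with values were chosen after they were seen. Within 0.2 megabases on either side and between the 4 members, 27 other genes were tested, and in NZO 5 were higher and 9 lower, near the 27.2% and 26.6% of all genes. In NOD 0 were higher and 3 lower. The 5 in NZO were Dusp12, Fcrla, Pvrl4, Arhgap30 and Usf1, of which Arhgap30 was 1.79 ± 0.14 higher. Sdhc, between Fcgr3 and Fcer1g, was 0.41 ± 0.15 lower. In B6, 5 of the 27 were higher and 5 lower, among them Fcrla, which was 2.00 ± 0.26 higher.

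Within strains, the genes most like each member differed. With strain means taken off over 61 libraries, Fcgr3 was most like Adgre1, the macrophage surface protein F4/80 (r = 0.94), and then Laptm5, Tyrobp, Fcer1g and Rassf4. Fcer1g was most like Laptm5 (r = 0.93), with Pirb, Fermt3, Lrrc25 and Vav1. Fcgr1 was most like Timeless (r = 0.88) and Fcgr4 like Fyb (r = 0.835). Fcgr2b was most like Ccr1 (r = 0.82), with Chil1, Ifitm6 and Il18rap among the next. Its value was far above the rest of the strain in NZO replicate 8, rich in neutrophil transcripts, and in Cast replicates 5 and 6. Such libraries can carry much of an r within strains, and r without them was not computed. Fcgrt was most like Ephx2 (r = 0.83), with Negr1, Pck1 and Ces1d among the next. Between members, r was 0.91 for Fcgr3 with Fcer1g and 0.34 for Fcgr3 with Fcgr2b, the pair that shares reads.

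Over the 8 strain means, NZO included, the activating side and Fcgr2b parted. The r of Fcgr3 with Fcer1g was 0.98, of Fcgr1 with Fcgr4 0.955, and of Fcgr2b with each of the 4 others on the activating side between −0.26 and −0.06. These are descriptions over 8 points, of which NZO is the highest for the activating side. Outside NZO, B6 had the highest mean for Fcgr1, Fcgr3, Fcgr4, Fcer1g and Fcgr2b alike. The lowest was PWK for Fcgr1 and Fcgr2b, and WSB for Fcgr3, Fcgr4 and Fcer1g. The r without NZO was not computed. The strain means most like Fcgr3 were those of C1qb (r = 0.999) and most like Fcgr2b those of Rcn2 (r = 0.935).

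A slope on log2 Xist, the RNA of the inactive X chromosome, was fitted within strains because the labels give no sex and Xist varied from 0.0361 to 9.54 on the log2 (CPM + 1) scale. Fcer1g and Fcgr2b fell with Xist, 2 of 6 members against 19.5% of all genes, and Fcgrt rose, 1 of 6 against 17.9%. The slopes per log2 unit were −0.051 ± 0.016 for Fcer1g, −0.044 ± 0.017 for Fcgr2b and 0.022 ± 0.008 for Fcgrt (edgeR adjusted p = 0.00768, 0.0318 and 0.0207). With the macrophage marker mean as a second covariate none of the 3 passed, and without NZO replicate 8 Fcgr2b did not (edgeR adjusted p = 0.101). With Xist in the fit, NZO differences were 3.39, 1.87, 3.51 and 2.36 for Fcgr1, Fcgr3, Fcgr4 and Fcer1g.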

How the data were processed

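Libraries were made from adipose RNA by poly(A) selection, per the labels' protocols. The authors deposited expected counts (read estimates) per gene on GRCm38, and log2 values from the variance-stabilising transformation of DESeq2, whose version is not given in the sources used here, per the submitters' processing notes. The aligner, and whether reads were aligned to 1 reference or to each strain's own, are not given in the sources used here. Of all counts 21.1% were not whole within 1e-06, and counts were rounded.

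Genes were filtered with filterByExpr by strain (2566 set aside), then TMM-scaled. The quasi-likelihood model of edgeR 4.0.16 (R 4.3.3), with robust dispersion, took a separate mean for each strain, Benjamini-Hochberg adjusted over 18603 genes at 0.05, all 2-sided. Logged CPM used a prior count of 2, and marker sums used CPM of library totals without TMM. The SE of a fold change is its size divided by the root of F. Alternatives were RLE scaling, other filters, DESeq2 1.42.0, limma 3.58.1 on the log2 values, covariates, a replicate block, ratio pseudocounts and left-out libraries, of which those leaving out Cast replicates or libraries rich in other tissues' markers were added after the data were seen. Transcripts were compared with blastn 2.17.0. All 6 members matched 1 RefSeq promoter or more, and for Fcgr3, with 2, the first listed was taken. The procedure was tested on simulated data.

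The text names all members and, per list, the called genes with the largest positive and negative change at a mean of at least 1 CPM, the members of counts of up to 5, and the genes most like each member, of which some are not reported here. The members and lists were chosen with earlier results of these data known.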

Additional observations from a re-analysis of the deposited data

Results flagged for a closer look

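In 48 groups of a member and a strain, the library farthest from the rest was compared with Dixon's 95% critical value. Where values are normally distributed, chance exceeds it in about 1 group in 20. CPM were used here without logs, and the groups share libraries, so that rate need not hold. Of the 48 groups, 8 exceeded the critical value, each with a high library. B6 replicate 6 was far above the other B6 libraries for Fcgr1 (12.7 CPM, the next 6.86), Fcgr3 (84.8, the next 50.7) and Fcer1g (31.7, the next 18.5). Its macrophage marker sum was 4401 CPM against a B6 median of 2128, and its genital duct marker sum was 1038 CPM. In NZO replicate 8, Fcgr2b was 55.0 CPM (the next 17.5) and Fcgrt 322.5 CPM (the next 259.0). Fcgr1 was 19.3 CPM in Cast replicate 5 (the next 6.01), 4.76 in 129 replicate 9 (the next 2.72) and 8.98 in NOD replicate 6 (the next 5.50).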

How the results depend on the processing

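The calls against the other 7 strains numbered 18 of 48 and ranged from 14 to 23 over the alternatives. Over all genes tested, the share called per strain ran from 18.6% in 129 to 56.2% in Cast, so this count alone says little about the members. The 3 activating-to-Fcgr2b ratios passed in NZO under all of those run for them, which did not include the macrophage covariate. With the macrophage marker mean as a covariate, calls on the Xist slope went from 3 to 0, and 17 of the 48 log2 differences changed sign, 11 of them passing in neither fit. The 6 others were Fcer1g in AJ to −0.24, Fcgr3, Fcgr4 and Fcer1g in Cast to 0.32, 0.58 and 0.37, and Fcgr1 and Fcgr3 in WSB to 0.25 and 0.30. The difference of Fcgr4 between NZO and B6 also changed sign, to −0.31. The cause was not tested. Fcgr2b in Cast became −0.73 without Cast replicates 5 and 6. Ratio calls went from 11 to 7 with a pseudocount of 2 CPM, and Fcgr4 over Fcer1g in NZO became −0.21 with it and −0.18 on the variance-stabilised values. Genes called went from 10022 to 4956 in NZO and from 9180 to 5539 in WSB with the macrophage covariate, from 3451 to 2289 in 129 and from 4277 to 2532 in AJ without the libraries rich in other tissues' markers, and, with fewer genes tested at a mean of at least 5 CPM, to 2068 in 129, 2778 in AJ, 3132 of 4899 in B6, 6585 in NZO and 5022 of 8105 in PWK. With the replicate number as a replicate block, 18 of 48 calls and 7 of 48 ratio calls were made, and Fcgr1 in 129 did not pass (edgeR adjusted p = 0.111). The 4 ratios that did not pass under the block were Fcgr3 over Fcgr2b in B6 (permutation adjusted p = 0.0611) and Fcgr1 over Fcer1g in Cast and PWK and Fcgr4 over Fcer1g in NZO (each permutation adjusted p = 0.0581). The labels give the numbers no shared animal, batch or day, and they were not taken to pair the libraries. The median correlation of same-numbered libraries was 0.108 over 186 pairs, with 51.6% over 0.1, against −0.0184 for other numbers, and 21 of 61 libraries correlated best with their own number, a hint from the data and not the design. The mean of Fcgr4 was under 1 CPM in 129, AJ, PWK and WSB, which limits its precision there.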
